A study of Bos taurus with 35 samples.

Results

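Muscle sampled 24 h *post-mortem* was compared with muscle sampled 6 h *post-mortem* from the same 7 carcasses, that is, 14 of the 35 RNA-Seq samples of the series. Members were taken by the sampling time and the animal number in the sample names, so that each animal contributed 1 sample at 6 h and 1 at 24 h, and no 0 h sample entered the contrast. The study followed the *longissimus thoracis* (*LT*), the large muscle along the back that gives rib steaks, in 7 crossbred beef heifers at 5 times after slaughter: 0 h (within the first hour), 6, 24, 48 and 72 h. A core was cut from the left side of the carcass at each time while it hung in the drip cooler, frozen in liquid nitrogen and sequenced as a stranded mRNA library. No treatment, genotype or strain separated the groups. The heifers weighed between 525 and 635 kg and the label of every sample named 1 animal, so no sample was a pool. Each core was a new piece of the same muscle, and a change with time and a difference between pieces therefore cannot be told apart within an animal. The question addressed was which transcripts changed in abundance between the first hours after slaughter and the next day.

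An *LT* core is mostly muscle fibres, but it also holds blood vessels, connective tissue and the intramuscular adipocytes that make up marbling fat. White adipocytes store triglyceride in a lipid droplet coated by perilipins and CIDE proteins, make fatty acids from acetyl-CoA through ACLY, ACACA and FASN, and release them again through lipases such as LIPE. They also secrete hormones, among them leptin and adiponectin. After slaughter no blood reaches the muscle, and mRNA levels then reflect both what is still transcribed and what is degraded.

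The 6 h libraries held 20864347 to 64523593 assigned reads (median 40133660) and the 24 h libraries 21716752 to 92459664 (median 38596868). Levels are given below as CPM, read counts scaled to a common library total, with trimmed mean of M-values (TMM) factors applied. Those factors lay between 1.01 and 1.105 at 6 h and between 1.004 and 1.109 at 24 h. The 7 muscle fibre markers that could be matched, including *CKM*, *TNNT1*, *TNNT3* and *RYR1*, summed to 56710 to 66350 CPM at 6 h and 50730 to 66560 CPM at 24 h, so the labelled tissue carried its defining transcripts at both times. None of the 7 was called, and *RYR1*, the calcium release channel, had the lowest FDR (log2 fold change -0.26, FDR 0.82). Gene symbols were available for 3106 of the 14630 genes tested, those the study listed as differentially expressed (DE) from 0 h at some time. A member of a gene list that never differed from 0 h therefore could not be matched, and the shares of list members given below are shares of matched genes only. The lists were also chosen with earlier results of these data known, so these shares are descriptions and not tests.

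Between 6 h and 24 h, 79 genes were downregulated (0.54% of the 14630 tested) and 1 was upregulated (0.00684%), at a false discovery rate (FDR) below 0.05 and a fold change above 1.5 in edgeR's quasi-likelihood test with animal as a block. The fitted fold change was over 2 in 72 of the 79, over 8 in 30 and over 32 in 12. The level was lower at 24 h in all 7 animals for 63 of the 79 genes, in 6 animals for 15 and in 5 for *PRRT4*. For 36 of them every 24 h sample lay below every 6 h sample, a separation found for 37 of all genes tested (0.253%) and for 0 genes in the other direction. Most of the 79 encode proteins (75 genes), and 71 had a symbol, which is 2.29% of the 3106 genes with one. Over all 14630 genes the median log2 fold change was 0.0007, and at an unadjusted p below 0.05 there were 487 lower and 431 higher genes. At an FDR below 0.05 without the fold threshold, 86 were lower (0.588%) and 5 higher (0.0342%). The call count depended on which samples were fitted, and each fit redid the filter on low counts, the TMM factors and the estimate of spread. When only the 14 samples at 6 and 24 h were fitted, 29 genes were downregulated, 28 of them among the 79, and 3 other genes were upregulated. Of the 48 named downregulated genes, 41 were tested in that fit, 24 were called and all 41 kept their sign. The tested genes that lost their call were *FASN*, *SCD*, *FABP4*, *LIPE*, *LBP*, *RBP4*, *ACACA*, *ACLY*, *TKT*, *IDH1*, *PGD*, *SOST*, *ATF5*, *FBP1*, *UVRAG* and 2 genes without a symbol. *SGK2*, *GLYAT*, *KLB*, *LGALS12*, *GSTT2*, *FFAR4* and *PTGER3* did not pass the filter on low counts in the 14 samples and were not tested there.

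**Figure D1:**
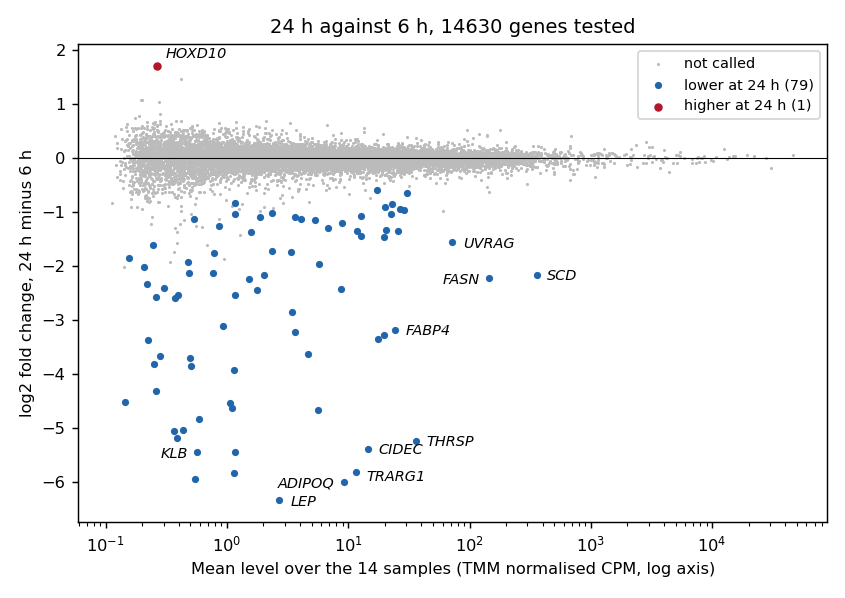
Each point is 1 of 14630 genes, with its mean level over the 14 samples (CPM, log axis) against its fitted log2 fold change from 6 h to 24 h. The 79 downregulated genes (blue) spread from the lowest levels up to *SCD* and reach -6.35 for *LEP*, whereas *HOXD10* (red) is the single upregulated gene at 1.71.

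Adipocyte hormones and surface proteins had the largest drops. Of 15 listed genes 12 were matched, 11 were downregulated and the median log2 fold change was -4.57. *LEP* encodes leptin, the satiety hormone of fat tissue. Its level at 6 h ran from 0.330 CPM through a median of 2.95 to 21.4, and at 24 h from 0 through 0.0365 to 0.176. The 2 groups did not overlap, 2 of the 24 h libraries held no *LEP* read, and the log2 fold change was -6.35 (SE 0.59, FDR 3.5e-08). *ADIPOQ* encodes adiponectin, the insulin-sensitising hormone that adipocytes release. It ran from 1.43 through 14.2 to 62.8 CPM at 6 h and from 0.137 through 0.206 to 0.747 at 24 h. Again every 24 h sample lay below every 6 h sample (log2 fold change -6.00, SE 0.50, FDR 6.9e-09). *TRARG1* encodes a regulator of the trafficking of the insulin-responsive glucose transporter and had the lowest FDR of all genes. Its level went from 2.67, 15.7 and 81.9 CPM (lowest, median, highest) at 6 h to 0.150, 0.306 and 0.879 at 24 h, a log2 change of -5.83 (SE 0.46, FDR 4.5e-09).

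The other downregulated genes of the group were lower in abundance or changed less. *KLB*, the co-receptor for the hormone FGF21, fell by 5.46 on the log2 scale (SE 0.67), from 353 reads over the 7 libraries at 6 h to 7 reads at 24 h. *LGALS12*, an adipocyte galectin, went from 262 reads to 7 (log2 fold change -5.04, SE 0.67). The fatty acid receptor gene *FFAR4* went from 85 reads to 3, with 5 of the 24 h libraries at 0 and groups that touched at their edges (log2 fold change -4.52, SE 0.85, FDR 0.0051). *ADIG*, adipogenin, ran from 0.385 through 0.936 to 7.59 CPM at 6 h and from 0 through 0.0546 to 0.308 at 24 h, without overlap. *LBP*, which encodes the lipopolysaccharide-binding protein, had a log2 fold change of -2.14 (SE 0.39). Smaller drops were found for *RBP4* (retinol-binding protein, -1.20), *NNAT* (neuronatin, -1.10) and *ADIRF* (adipogenesis regulatory factor, -0.90). All of these fell in at least 6 of 7 animals. *RBP4* lost its call without animal 104, 107, 201 or 206 (FDR 0.053 to 0.098) and *FFAR4* without animal 103 (FDR 0.054). *CFD*, which encodes the complement protease adipsin, was the exception, with a log2 fold change of 0.22 (FDR 0.84).

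Of the proteins on the lipid droplet, 8 of 14 listed were matched and 3 were downregulated. *CIDEC*, which drives the fusion of droplets into a single large one, ran from 3.69 through 24.5 to 91.4 CPM at 6 h and from 0.222 through 0.774 to 1.26 at 24 h (log2 fold change -5.39, SE 0.47, FDR 1.3e-08). Every 24 h sample was below the lowest 6 h sample. *PLIN1*, the perilipin of the adipocyte droplet, went from 7.04, 27.4 and 106 CPM to 2.55, 3.03 and 4.51 (log2 fold change -3.27, SE 0.39), also without overlap. *CIDEA* fell by 1.97 on the log2 scale (SE 0.28), and its groups touched, with a lowest 6 h value of 3.357 CPM and a highest 24 h value of 3.359. The 5 other droplet genes did not pass the test. *PLIN2*, the perilipin found in many cell types, had -0.34 (FDR 0.33), *PLIN4* -0.27 (FDR 0.84) and *PLIN5*, the perilipin of oxidative muscle, 0.09 (FDR 0.92). *FITM1* and *FITM2*, which encode proteins of droplet formation, had 0.08 and -0.13. The median of the 8 was -0.30.

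Fatty acid synthesis was the group with the most downregulated members after the adipokines, 10 of 12 matched (21 listed), with a median log2 fold change of -1.19. *THRSP* encodes Spot 14, a protein associated with lipogenesis. Its level ran from 3.14 through 37.8 to 333 CPM at 6 h and from 0.507 through 0.896 to 3.52 at 24 h (log2 fold change -5.24, SE 0.49). It was lower in all 7 animals, although the highest 24 h value passed the lowest 6 h value. *FASN*, fatty acid synthase, went from 62.1, 146 and 959 CPM to 37.2, 40.3 and 45.9 (log2 fold change -2.23, SE 0.36, FDR 0.00041). *SCD*, the desaturase that makes oleic acid, went from 108, 413 and 2233 CPM to 89.1, 105 and 126 (log2 fold change -2.16, SE 0.32, FDR 0.00011). The 24 h values of both genes were close to each other across animals, and the 6 h values were not. In the 14-sample fit *FASN* (FDR 0.068) and *SCD* (FDR 0.057) kept their direction but missed the threshold.

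The enzyme that lengthens palmitate, *ELOVL6*, fell by 3.36 on the log2 scale (SE 0.43). The enzymes that supply its substrates moved less. *ACACA*, acetyl-CoA carboxylase, had -1.34 (SE 0.28) and *ACLY*, which makes acetyl-CoA from citrate, -1.03 (SE 0.22). Enzymes that yield NADPH or feed the pentose phosphate pathway followed, with *TKT* at -0.96 (SE 0.19), *IDH1* at -0.84 (SE 0.20) and *PGD* at -0.59 (SE 0.14, FDR 0.044). *PGD* was the called gene nearest to the fold threshold, and it lost its call in 12 of 19 alternative analyses, those without animal 101, 104, 107, 201, 202 or 206 included (FDR 0.052 to 0.20). *IDH1* lost its call without 104, 107, 201, 202 or 206 (FDR 0.10 to 0.21), *ACACA* without 104, 201 or 202 (FDR 0.053 to 0.065), *ACLY* without 104 or 202 (FDR 0.067 and 0.052) and *TKT* without 104 (FDR 0.056). *ACSS2*, which activates acetate, had -0.98 (FDR 0.057) and *ELOVL5*, which lengthens polyunsaturated fatty acids, -0.74 (FDR 0.081), so neither passed.

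In triglyceride synthesis and glyceroneogenesis, 4 of 12 matched genes (23 listed) were downregulated. Both phosphoenolpyruvate carboxykinases, which make the glycerol backbone from pyruvate in fat cells, were among them. *PCK1*, the cytosolic enzyme, ran from 1.57 through 5.55 to 13.4 CPM at 6 h and from 0.399 through 0.839 to 1.19 at 24 h (log2 fold change -2.85, SE 0.34). *PCK2*, the mitochondrial enzyme, fell by 3.23 on the log2 scale (SE 0.42). Neither overlapped between the times. The remaining 2 are not enzymes of triglyceride assembly: *ACSM1* encodes a medium-chain acyl-CoA synthetase (log2 fold change -4.67, SE 0.41) and *FABP4* the fatty acid chaperone of adipocytes. *FABP4* ran from 5.97 through 31.8 to 131 CPM at 6 h and from 1.46 through 4.48 to 10.2 at 24 h (log2 fold change -3.18, SE 0.48). It fell in 6 of 7 animals, and in animal 101 it stood at 5.97 CPM at 6 h and 10.2 at 24 h. The genes of the pathway that muscle fibres also use did not pass, with *LPL* at -0.36 (FDR 0.70), *ACSL1* at -0.02, *GPAM* at 0.05 and *FABP3*, the fatty acid chaperone of muscle, at -0.03. The median of the 12 was -0.17.

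Of the genes of lipolysis and its control, 9 of 22 were matched and 5 were downregulated, with a median of -1.08. *LIPE*, hormone-sensitive lipase, went from 6.25, 15.1 and 47.3 CPM to 4.83, 7.55 and 12.7 (log2 fold change -1.08, SE 0.20, FDR 0.0020). Its groups overlapped and animal 101 was slightly higher at 24 h. *ANGPTL8*, a secreted partner in the inhibition of lipoprotein lipase, fell by 3.64 on the log2 scale (SE 0.47). The kinase gene *SGK2* went from 341 reads over the 7 libraries to 5, with 4 of the 24 h libraries at 0 (log2 fold change -5.95, SE 0.65). *ADORA1* (-2.13) and *PTGER3* (-1.93) encode receptors for adenosine and prostaglandin E that inhibit lipolysis. The call of *PTGER3* was lost without animal 201 (FDR 0.092) or 206 (FDR 0.18). *PDE3B* (-0.91, FDR 0.12), which breaks down cyclic AMP in response to insulin, *GNAI1* (-0.74, FDR 0.12) and *ABHD15* (-0.88, FDR 0.41) missed the FDR threshold. *ADCY6* passed it (FDR 0.031) with a log2 fold change of -0.36, under the fold threshold. Over the 5 lists on adipokines and lipid metabolism, 33 of 53 matched genes were downregulated, against 2.29% of all genes with a symbol. Because the lists were drawn up with earlier results of these data known, the share is a description.

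**Figure D2:**
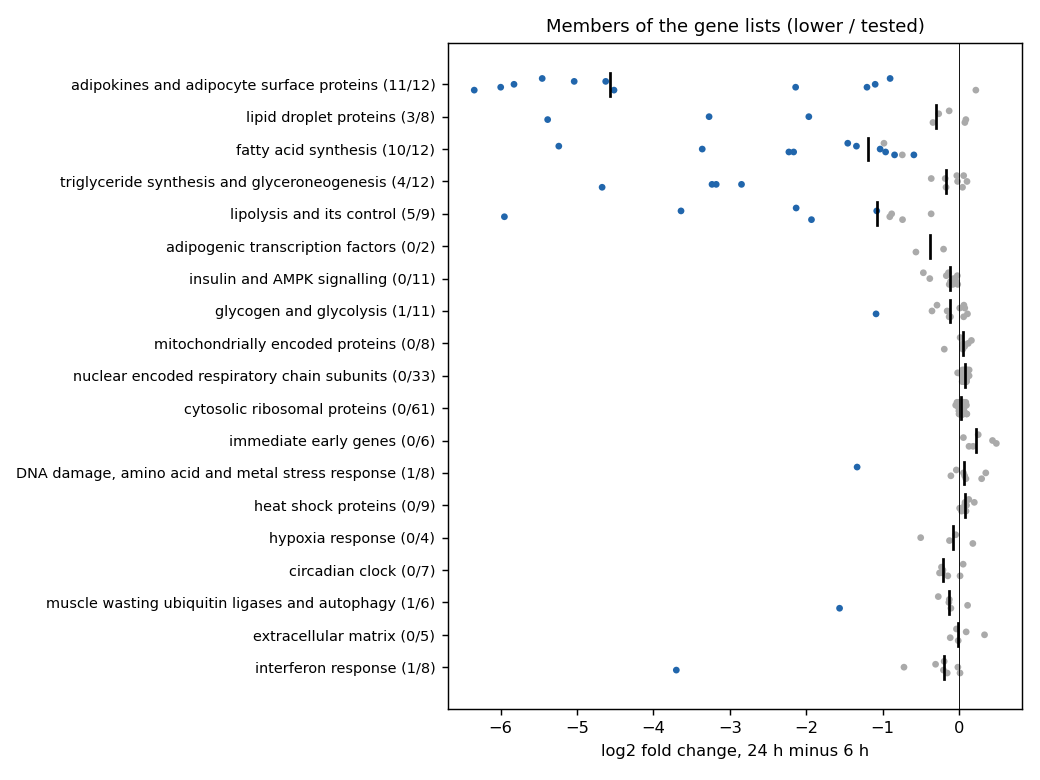
Each point is 1 matched gene of a list, placed at its log2 fold change from 6 h to 24 h, with downregulated genes in blue, other genes in grey and the list median as a black bar. The first 5 lists hold 33 of the 37 downregulated list members, and the medians of the other lists lie between -0.38 and 0.22.

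Neither of the 2 matched adipogenic transcription factors (15 listed) passed the test. *PPARG*, the master transcription factor of adipocytes, had a log2 fold change of -0.56 (SE 0.18, FDR 0.28) with a lower value in 7 of 7 animals. In the contrast of 24 h against 0 h *PPARG* was lower (log2 fold change -0.80, FDR 0.0049). *PPARA* had -0.20 (FDR 0.86) from 6 h to 24 h. The other 13 listed adipogenic factors could not be matched. None of the 11 matched genes of insulin and AMPK signalling was called, with *INSR* at -0.04, *IRS1* at -0.13 and *PRKAA2*, the muscle AMPK subunit, lowest at -0.47 (FDR 0.78).

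Single members of 4 further lists were downregulated. *UVRAG*, which is known for a role in autophagy and endosome maturation, ran from 29.3 through 81.4 to 368 CPM at 6 h and from 24.9 through 30.4 to 44.3 at 24 h (log2 fold change -1.56, SE 0.30, FDR 0.0037). It was lower in 6 of 7 animals and its groups overlapped. In the RefSeq gene order of assembly ARS-UCD2.0 *UVRAG* lies between *DGAT2*, an enzyme of triglyceride synthesis, and *WNT11*, neither of which could be matched here. Whether reads of a neighbouring gene were counted for *UVRAG* was not tested, and its call was lost in the 14-sample fit (FDR 0.28). *ATF5*, a transcription factor of the amino acid stress response, had -1.33 (SE 0.21) and did not overlap between the times. *FBP1*, the fructose bisphosphatase of gluconeogenesis, had -1.09 (SE 0.22) and lost its call without animal 104 (FDR 0.055) or 206 (FDR 0.088). *APOL6*, an apolipoprotein L gene on the interferon list, had -3.70 (SE 0.55). In each of these 4 lists the rest did not pass: 5 of 6 matched autophagy and wasting genes, 7 of 8 stress genes, 10 of 11 glycogen and glycolysis genes, and 7 of 8 interferon genes. On the same lists stood *FBXO32*, the wasting ubiquitin ligase, at -0.27, *DDIT3* at 0.35 and *HK2* at -0.35.

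Another 42 downregulated genes were in no list, 34 of them with a symbol. *GLYAT*, the glycine N-acyltransferase, had a log2 fold change of -5.84 (SE 0.64), from 723 reads at 6 h to 10 at 24 h. *CYP2B6*, a cytochrome P450, had -5.44 (SE 0.63) and *GSTT2*, a glutathione S-transferase, -4.55 (SE 0.47). All 3 separated the times without overlap. *CKB*, the brain-type creatine kinase, ran from 3.85 through 12.4 to 51.1 CPM at 6 h and from 1.82 through 2.41 to 2.86 at 24 h (log2 fold change -2.43, SE 0.37). The log2 fold change was -1.73 (SE 0.23) for *QPRT*, an enzyme of NAD synthesis, -1.74 (SE 0.30) for *SOST*, which encodes the WNT inhibitor sclerostin, and -2.16 (SE 0.37) for *PRR5L*, which encodes a partner of mTORC2. *MDFI*, an inhibitor of myogenic factors, had -2.53 (SE 0.36) and the aminopeptidase gene *XPNPEP2* -2.23 (SE 0.45), the latter losing its call without animal 104 (FDR 0.089). *APOE* was chosen after its values were seen. It encodes a lipid carrier that macrophages make too, and its log2 fold change was -0.94 (SE 0.19, FDR 0.0078).

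Lists for general cell function held no call, which for lists of this size lies near the background of 0.54% of all genes and 2.29% of genes with a symbol. There were 0 calls in 8 matched mitochondrially encoded genes (median log2 fold change 0.05), 0 in 33 nuclear respiratory chain subunits (0.08) and 0 in 61 matched identifiers of cytosolic ribosomal proteins (0.03). The count was also 0 in 6 immediate early genes (0.22), 9 heat shock genes (0.08), 7 clock genes (-0.21), 4 hypoxia genes (-0.08) and 5 extracellular matrix genes (-0.01). The lowest FDR in each was reached by *ND4L* at 0.16, *SDHB* at 0.11, *RPL32* at 0.10, *FOSL1* at 0.49, *HSPE1* at 0.08, *HLF* at -0.25, *CA9* at -0.50 and *LAMA2* at 0.33. None of these had an FDR below 0.31. Calpains, cathepsins and caspases, the proteases usually named for meat tenderness, had 0 of 19 listed genes matched.

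Of the cell type markers, those of adipocytes moved and the others did not pass the test. Adipocyte markers were downregulated in 12 of 14 matched genes (18 listed), all but *PPARG* and *CFD*, with a median log2 fold change of -3.95. Among all genes with a symbol the downregulated share was 2.29%. Several of these markers also stand in the lipid lists above, so the counts are not independent. Their summed level ran from 56.9 through 205 to 949 CPM at 6 h and from 29.1 through 41.5 to 51.7 at 24 h. No 24 h sample reached the lowest 6 h sample. In bulk tissue, fewer adipocytes in a core and less RNA per adipocyte cannot be told apart.

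Markers of cells that lie beside adipocytes gave ranges that overlapped between the times. The summed preadipocyte and fibroblast markers (2 of 13 matched, *PDGFRA* and *PI16*) stood at 71.5 to 101.7 CPM at 6 h and 76.96 to 114.2 at 24 h. Smooth muscle and pericyte markers (5 of 10) stood at 183.7 to 236.4 and 177.8 to 279.8 CPM, with *MCAM* nearest to a call (log2 fold change -0.43, FDR 0.11). *MCAM* was the only 1 of these 5 below 0, and their median log2 fold change was 0.17. Macrophage markers (7 of 12) stood at 67.77 to 137.9 and 63.68 to 102.1 CPM, with *MRC1* at -0.36 (FDR 0.85). T and NK cell markers (13 of 20) stood at 9.754 to 27.21 and 14.73 to 21.94 CPM. Within animals their sum was higher at 24 h in 6 of 7, and 11 of the 13 genes had a log2 fold change above 0 (median 0.28), although none passed the test, with *ZAP70*, a kinase of the T cell receptor, at 0.34 (FDR 0.60). Satellite cell markers (2 of 8) stood at 12.96 to 46.17 and 11.23 to 46.48 CPM, with *VCAM1* at -0.25. Schwann cell markers (5 of 8) stood at 37.63 to 61.59 and 39.1 to 50.91 CPM, with *NCAM1* at -0.23 the only 1 below 0 (median 0.12). The sums of the 2 erythroid and 2 neutrophil markers reached at most 6.763 and 4.928 CPM in any of the 14 samples, with *HBB* at 0.53 (FDR 0.93) and *LTF* at 0.28 (FDR 0.83). The other neutrophil marker, *S100A9*, had a log2 fold change of -0.47 and was not called. *TPSB2* (0.24) was the only mast cell marker matched, and none of the 12 endothelial markers could be matched. No matched marker was at 0 reads over a whole group.

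**Figure D3:**
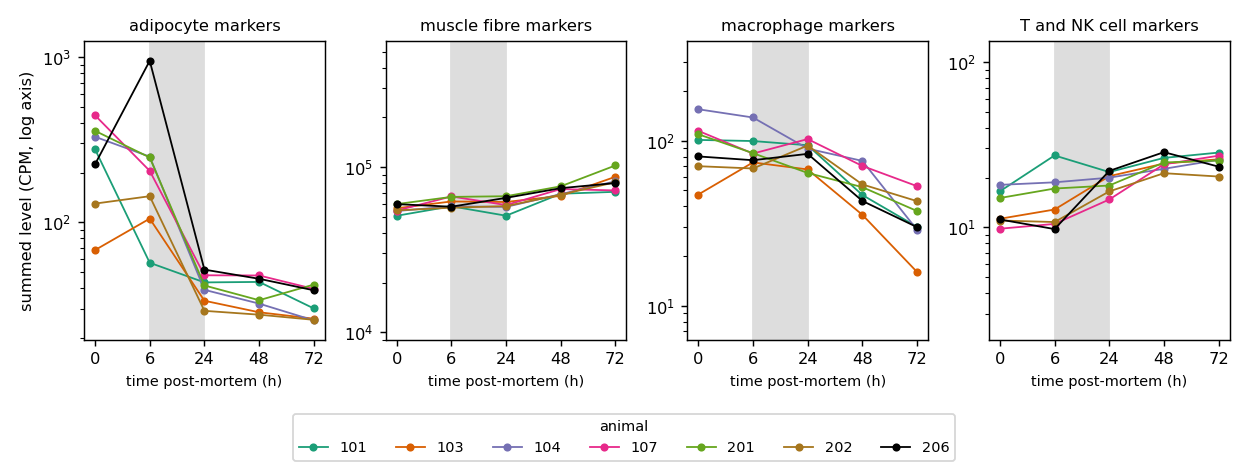
Summed level of the matched markers of 4 cell types (CPM, log axis, the same span in each panel) at the 5 sampling times, with 1 line per animal and the interval from 6 h to 24 h shaded. Adipocyte markers drop in that interval to between 29.1 and 51.7 CPM in all 7 animals, while the muscle fibre, macrophage and T and NK cell sums at 6 h and 24 h overlap.

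The size of the drop differed between animals, and so did the 6 h starting level. Summed adipocyte markers at 6 h were lowest in animal 101 (56.9 CPM), followed by 103 (105 CPM), 202 (144 CPM), 107 (205 CPM), 201 (247 CPM), 104 (249.5 CPM) and 206 (949 CPM). At 24 h the same animals lay at 43.3, 33.5, 29.1, 47.8, 41.5, 39.0 and 51.7 CPM. The ratio of 6 h to 24 h was 1.31 in animal 101 and 18.3 in animal 206, with the other 5 animals between 3.14 and 6.40.

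The same was seen over all 79 downregulated genes, which share their samples and were selected for this contrast, so the values are a description. The median log2 difference was -0.41 in animal 101, -1.25 in 103, -1.70 in 202, -1.78 in 107, -1.83 in 201, -1.96 in 104 and -3.88 in 206. Animal 101 was lower at 24 h for 64 of the 79 genes, and each of the other 6 animals for 78 or 79. At 6 h animal 206 had the highest level of the 7 for 78 genes and animal 101 the lowest for 68. At 24 h the extremes were shared out more, with animal 206 highest for 22 genes and 101 lowest for 18. At 0 h, where animal 107 was highest for 45 genes and 103 lowest for 70, the order was another one. Without animal 206, 60 genes were downregulated, all of them among the 79. Without animal 101, 81 were downregulated, 76 of them shared, and 6 were upregulated.

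**Figure D4:**
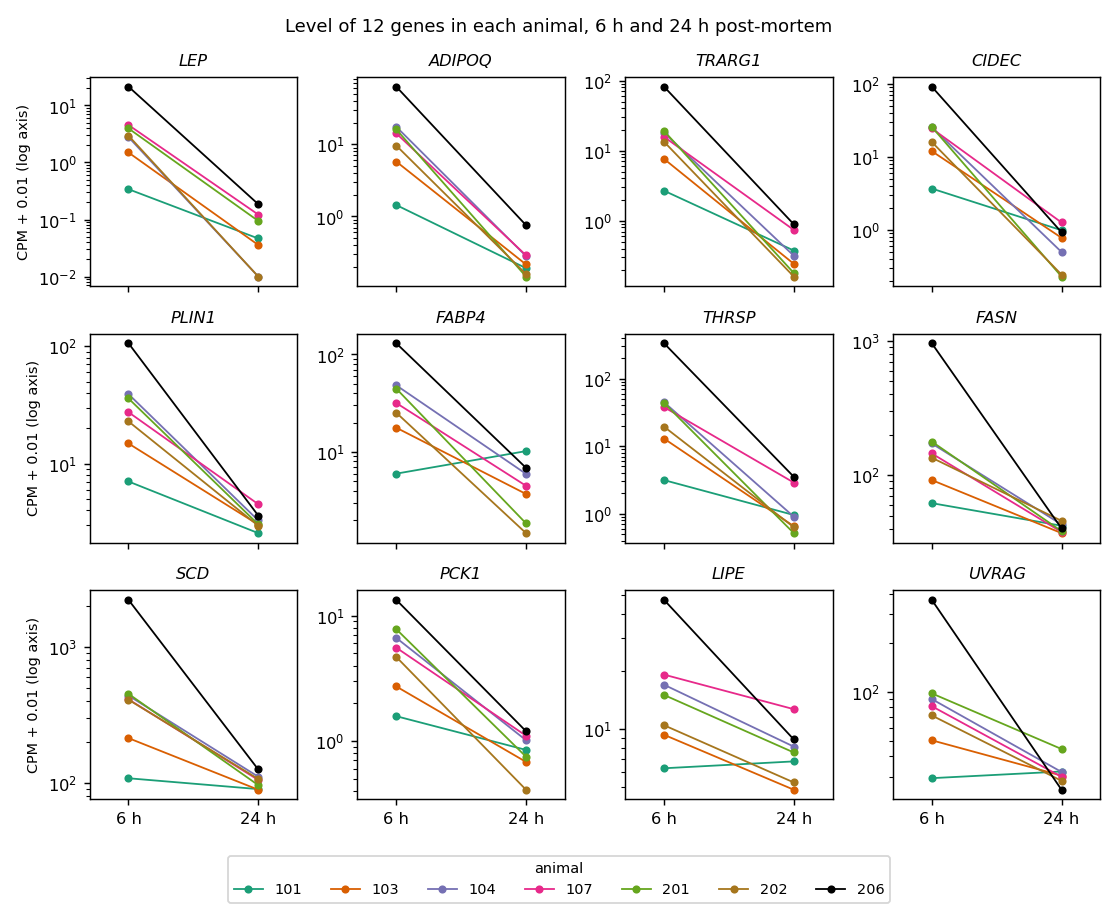
Level of 12 downregulated genes (CPM + 0.01, log axis, each panel with its own scale) in each of the 7 animals at 6 h and 24 h, joined by a line per animal. Animal 206 (black) starts highest in every panel and animal 101 lowest, and for *FASN* and *SCD* the 7 lines meet within a narrow range at 24 h.

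The spread between the 7 animals was described for the 79 genes within each time. For each of the 79 genes the highest level was divided by the lowest within a time. The median of this ratio was 12.4 at 6 h (78 genes above 0 in all samples) and 2.18 at 24 h (59 such genes). The ratio leaves out genes with a sample at 0, which were more numerous at 24 h, and at 24 h many of the genes had few reads. The median coefficient of variation was 94.6% at 6 h and 34.1% at 24 h, against 49.0% at 0 h. It was 42.2% and 41.7% at the 2 later times. Summed over the 79 genes the level was 459 to 5971 CPM at 6 h (median 1233) and 373 to 429 CPM at 24 h (median 391). The highest 6 h sum was that of animal 206, and the next was 1412 CPM. Animal 206 was also highest at 6 h for 78 of the 79 genes, so 1 sample weighs on the 6 h ratio and coefficient of variation. Neither was computed without it.

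**Figure D5:**
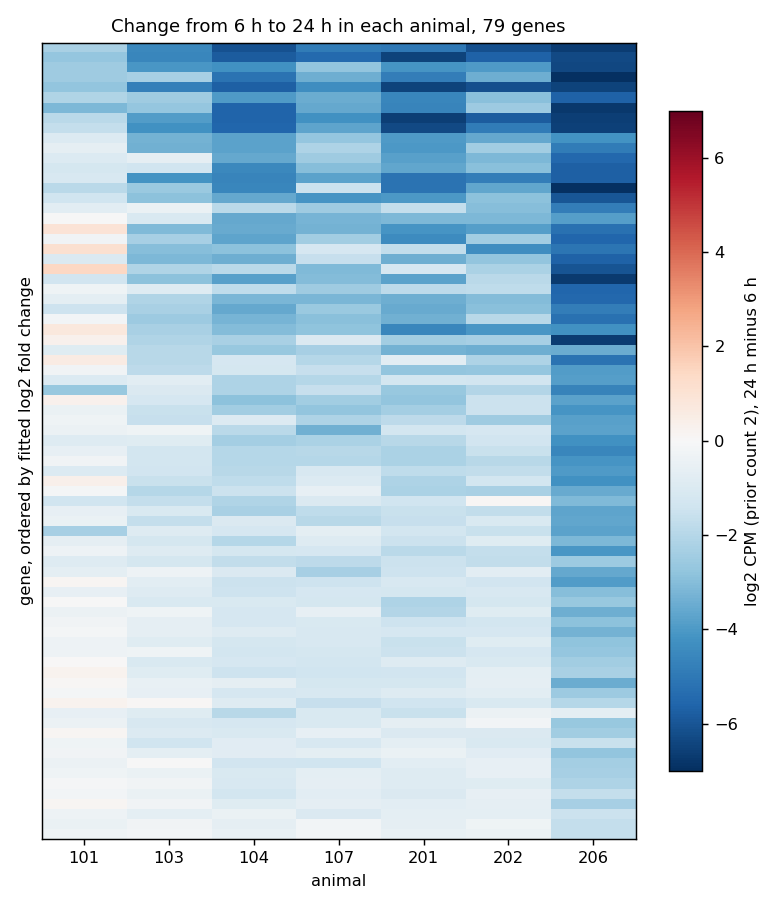
Difference in log2 CPM between 24 h and 6 h (prior count 2) for the 79 downregulated genes (rows, ordered by fitted log2 fold change) in each of the 7 animals (columns), from blue for lower at 24 h to red for higher. The column of animal 206 is darkest, with a median of -3.88, and that of animal 101 palest, with a median of -0.41.

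The neighbouring intervals share samples with the one studied here, at 6 h or at 24 h, and the 79 genes were selected on the 6 h to 24 h change. Their values are therefore given side by side as a description. From 0 h to 6 h, 0 of the 79 genes were called in either direction (27 of all genes, or 0.185%, were lower and 51, or 0.349%, higher) and their median log2 fold change was 0.01. From 24 h to 48 h, 0 were called again, with a median of -0.01, although 275 genes (1.88%) were lower and 55 (0.376%) higher. From 48 h to 72 h the count was 0 and the median 0.09, against 545 genes lower (3.73%) and 115 higher (0.786%). Between 24 h and 72 h, 2 of the 79 were lower again and 4 were higher, among them *PCK1* at 1.16 (FDR 0.0073) and *ADIRF* at 0.65 (FDR 0.0020). The share over all genes was not counted for this pair of times, so these counts have no background beside them. The median of the summed level over the 79 genes was 1616 CPM at 0 h. It was 1233 at 6 h, then 391, 367 and 398 at the 3 later times. These medians hide opposite moves within animals before 6 h. From 0 h to 6 h the sum fell in animals 101 (1511 to 459 CPM) and 104 (1691 to 1412). It also fell in 107 (2599 to 1233) and 201 (2169 to 1410). The sum rose in 103 (577.9 to 754.3 CPM), 202 (1028 to 1117) and 206 (1616 to 5971).

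The difference between neighbouring intervals was also fitted. The genes were selected on the 6 h to 24 h change and the 6 h samples enter both the first and the second interval with opposite sign, so the calls are not independent of the selection. The change from 6 h to 24 h was more negative than that from 0 h to 6 h for 34 of the 79 genes at an FDR below 0.05, and for 42 of all genes (0.287%). It was less negative for 0 of the 79 and for 7 of all genes (0.0478%). *LEP* changed by -0.34 in the first interval and -6.35 in the second, a difference of -6.01 (SE 0.82, FDR 0.00011). *ADIPOQ* gave a difference of -5.26 (SE 0.70, FDR 9.8e-05), *TRARG1* of -5.47 (SE 0.65, FDR 4.0e-05) and *PLIN1* of -2.77 (SE 0.60, FDR 0.025). *FASN* (-2.01, SE 0.59, FDR 0.22), *SCD* (-1.96, SE 0.53, FDR 0.14) and *LIPE* (-0.83, SE 0.33, FDR 0.49) did not pass. Of the 71 named genes 24 passed, a count that was 11 without animal 104, 13 without 201, 14 without 202 and 12 without 206. Against the next interval, from 24 h to 48 h, the difference passed for *CIDEC* (-5.23, SE 1.03, FDR 0.043) and *PCK1* (-3.46, SE 0.65, FDR 0.043), out of 4 of all genes (0.0273%). *LEP* missed it with a larger estimate and a larger error (-5.75, SE 2.36, FDR 0.39), its 48 h level being at most 0.0554 CPM in any animal. Among the named genes, 0 passed this contrast when animal 103, 104, 107, 201 or 202 was left out, 3 without 101 and 4 without 206.

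The single upregulated gene, *HOXD10*, was named after its values were seen, since its mean lay under the 1 CPM asked of named genes. It encodes a homeobox transcription factor of limb and trunk patterning. Its level was 0, 0.121 and 0.303 CPM (lowest, median, highest) at 6 h and 0.255, 0.371 and 0.539 at 24 h, from 38 and 163 reads over the 7 libraries. The groups overlapped and 6 of 7 animals were higher at 24 h (log2 fold change 1.71, SE 0.32, FDR 0.0028). At 0 h the median of *HOXD10* was 0.257 CPM, and 24 h against 0 h did not pass (log2 fold change 0.87, FDR 0.059). The gene was lower again at 48 h than at 24 h (log2 fold change -0.87, FDR 0.035). At 72 h against 24 h its log2 fold change was -2.59. Just outside the thresholds lay 3 genes without a symbol. ENSBTAG00000037899 had a log2 fold change of 0.56 (FDR 0.043) and was higher in 7 of 7 animals, ENSBTAG00000000245 had -0.50 (FDR 0.036) and ENSBTAG00000012338 -0.48 (FDR 0.012). Just inside, beside *PGD*, were ENSBTAG00000031184 at -0.64 (FDR 0.036) and ENSBTAG00000038617 at -0.83 (FDR 0.036), both of which lost their calls when any of 6 animals was left out.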

How the data were processed

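The deposited table held raw read counts for 27607 genes in 35 samples. Per the labels and the study's methods, the authors trimmed reads with Trimmomatic 0.39, checked them with FastQC 0.11.8, aligned them with STAR 2.7.0f to ARS-UCD1.2 and counted them with featureCounts 1.6.4 on Ensembl release 95. The sources differ on the strand setting of the counting, so overlapping and antisense genes are uncertain. RNA was extracted from separate cores, 1 library each. Here counts were filtered with filterByExpr (minimum count 10, 14630 genes kept), TMM-normalised and fitted in edgeR 4.0.16 (R 4.3.3, limma 3.58.1) with animal and time over all 35 samples, as the study did. The contrast 24 h minus 6 h was tested with the quasi-likelihood test and Benjamini-Hochberg adjustment. FDR values are from the quasi-likelihood test, on this contrast and all 35 samples unless another contrast or fit is named. Genes were called at FDR below 0.05 and a fold change above 1.5. DESeq2 1.42.0 and limma voom were alternatives.

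Samples of 1 animal share that animal, and their deviations from the group means were correlated at 0.323 to 0.68 across the 7 animals (median 0.663), against a median of -0.103 over 42 pairs of different animals. Named were the 25 largest changes in each direction with a symbol, a mean no lower than 1 CPM and 1 direction in the 7 animals, every called list member, the lowest FDR of each list without a call, and the 3 genes on either side of the thresholds. The members and the lists were chosen with earlier results of these data known. A few genes that these rules would name are not reported here. Symbols and biotypes came from the study's list of DE genes. On simulated counts with the design of this comparison (14630 genes), 195 of 200 changed genes were recovered (96 of 100 at a fold of 2 and 99 of 100 at a fold of 3), with 1 false call among 14430. Each gene was simulated with 1 mean, apart from the set fold at 24 h, and with 1 spread. No difference between animals was put in. The downregulated genes spread more at 6 h than at 24 h, so these rates need not hold for them.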

Additional observations from a re-analysis of the deposited data

Results flagged for a closer look

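Within each time, a sample was picked out when its gap to the nearest other sample, divided by the range of the 7, was above the 95% critical value of Dixon's test. For independent values from a normal distribution, chance picks out about 1 in 20 groups. Whether the CPM values follow such a distribution was not tested, so that rate is only a rough guide. Of 164 groups (the named genes and the summed levels at 6 h and at 24 h), 61 held such a sample, 52 of them at 6 h and 9 at 24 h, and 46 of the 61 were the 6 h sample of animal 206 as the highest. The genes share samples, so these are not independent observations. No cause was tested.

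In the 6 h sample of animal 206 the summed level of the 79 downregulated genes was 5971 CPM, where the next sample had 1412, and the summed adipocyte markers were 948.6 CPM, where the next had 249.5. Adipocyte hormones and surface proteins stood in this sample at 21.4 CPM (*LEP*), 62.8 (*ADIPOQ*), 81.9 (*TRARG1*), 4.22 (*KLB*), 3.80 (*LGALS12*), 7.59 (*ADIG*), 1.17 (*FFAR4*), 4.09 (*LBP*) and 28.9 (*RBP4*). Droplet proteins and lipogenic enzymes stood at 91.4 CPM (*CIDEC*), 106.0 (*PLIN1*), 27.6 (*CIDEA*), 332.8 (*THRSP*), 137.3 (*ELOVL6*), 959.4 (*FASN*), 2233 (*SCD*), 127.1 (*ACACA*), 92.9 (*ACLY*), 97.2 (*TKT*), 43.5 (*PGD*) and 67.8 (*IDH1*). The levels of glyceroneogenesis and lipolysis genes were 34.5 CPM (*ACSM1*), 24.96 (*PCK2*), 130.5 (*FABP4*), 36.75 (*ANGPTL8*), 3.39 (*SGK2*), 1.99 (*ADORA1*), 2.65 (*PTGER3*) and 47.3 (*LIPE*). Genes outside the lipid lists stood at 9.97 CPM (*GLYAT*), 9.18 (*CYP2B6*), 8.12 (*GSTT2*), 6.74 (*MDFI*), 51.1 (*CKB*), 9.01 (*XPNPEP2*), 12.7 (*PRR5L*), 13.2 (*SOST*), 7.93 (*QPRT*), 72.97 (*ATF5*), 6.64 (*FBP1*) and 367.7 (*UVRAG*). *PPARG*, which was not called, stood at 11.3 CPM there, where the next sample had 4.48, and ENSBTAG00000031184 and ENSBTAG00000038617 at 84.8 and 2.74 CPM.

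The other 6 h samples picked out were 201.1 CPM of *RPL32* in animal 104, 3.997 of *LTF* and 4.62 of summed neutrophil markers in animal 107, and 3.42 of *HBB* and 4.21 of summed erythroid markers in animal 202. ENSBTAG00000012338 had its lowest 6 h value, 3.59 CPM, in animal 201. At 24 h animal 202 was again highest for *HBB* (5.78 CPM) and the summed erythroid markers (6.76), and it was also highest for *ANGPTL8* (1.23). The 24 h sample of animal 206 was highest for *ADIPOQ* (0.747 CPM) and *ZAP70* (4.75), that of 107 for *ADIG* (0.308) and *SGK2* (0.056), and that of 201 for *CIDEA* (3.36) and *UVRAG* (44.3).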

How the results depend on the processing

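The count of downregulated genes was 79 and moved by over 1.5 times in 3 analyses: 29 with only the 14 samples (24 of 41 named genes tested there stayed called and all 41 kept their sign), 52 when edgeR tested against a fold of 1.5, and 49 with at least 1 CPM in 7 samples. Without the replicate block for animal it was 69, 67 of them shared, and of the named genes *LIPE*, *FBP1*, *ADIRF* and 2 genes without a symbol lost their calls. Leaving out 1 animal gave 60 to 81 lower and 1 to 6 higher genes. DESeq2 and the likelihood ratio test gave 88 lower and 3 higher, voom 82 and 2, no filter 95 and 2, and FDR alone 86 and 5, whereas the 1 CPM filter left 0 higher (*HOXD10* was removed) and the 14 samples gave 3. Other size factors, a fold above 2 and thinning to the smallest library gave 68 to 79 lower and 1 higher, but that 1 gene was not *HOXD10* after thinning. No named gene changed sign. Named genes kept their call 809 times over all settings and lost it 87 times. The count of named genes whose drop was larger from 6 h to 24 h than from 0 h to 6 h was 24, with 18 to 25 under other settings and 11 to 27 without 1 animal. Against the 24 h to 48 h interval the count was 2, with 0 without the block, with the 1 CPM filter and after thinning, 1 with upper quartile factors and 0 to 4 without 1 animal. The rarest genes rested on few reads, with 3 for *FFAR4* over the 24 h libraries. The cause of these shifts was not tested.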

Other observations

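Further downregulated genes with a symbol stood in no list and were picked for description after their values were seen. *MAL2*, a membrane trafficking gene, ran from 0.165 through 1.83 to 6.49 CPM at 6 h and from 0.0516 through 0.132 to 0.365 at 24 h (log2 fold change -3.93, SE 0.51). *S100G*, a calcium-binding protein gene, had -2.45 (SE 0.38) and *CLDN10*, a tight junction claudin, -3.11 (SE 0.53). At higher levels, *CCDC3* ran from 7.57 through 13.5 to 53.1 CPM at 6 h and from 4.17 through 5.80 to 9.08 at 24 h (log2 fold change -1.45, SE 0.26). *MGST1*, a microsomal glutathione S-transferase, had -1.36 (SE 0.25) and the monocarboxylate transporter gene *SLC16A7* -1.15 (SE 0.27). Both Ensembl identifiers that carry the symbol *COLQ*, the collagen tail of acetylcholinesterase, were called, at -2.01 (SE 0.40) and -1.76 (SE 0.28). Reads shared between them could not be told apart.

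The 2 of the 79 genes that were lower again from 24 h to 72 h were *FBP1* (-0.78, FDR 0.0081) and *ADAMTS16*, an extracellular metalloprotease gene (-0.90, FDR 0.0061). The share over all genes was not counted for this pair of times.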
